A study of Mus musculus with 2 samples.

Results

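Glycerolipid and fatty acid synthesis was examined through 52 genes, which were taken for the steps that their enzymes catalyse in making fatty acids, phosphatidic acid, triglycerides and membrane phospholipids. All 52 had at least 1 probe on the array, with 67 probes in all, out of 20283 genes with a named probe. Of these 52 genes, 51 were well above background in both embryos, out of 14755 such genes. *Dgkg*, a diacylglycerol kinase, was not well above background in either embryo and has no fold change.

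Every cell builds its membranes from these pathways. Cytosolic acetyl-CoA is carboxylated and condensed into palmitate, which is lengthened, desaturated and activated with coenzyme A. The acyl groups are placed on glycerol phosphate to give phosphatidic acid, which stands at a branch point. Lipins, the phosphatidate phosphatases, turn it into diacylglycerol for triglycerides, phosphatidylcholine and phosphatidylethanolamine, whereas CDP-diacylglycerol synthases turn it into the precursor of phosphatidylinositol and cardiolipin. Dullard, also named Ctdnep1, is a phosphatase of the nuclear envelope and endoplasmic reticulum that removes phosphate from lipin 1 together with its partner Cnep1r1.

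RNA of 1 *Dullard*-/- (homozygous) embryo and 1 *Dullard*+/- (heterozygous) embryo, both whole C57BL/6 embryos at E7.5, was hybridised to a 1-colour Agilent mouse array, with 1 array per embryo. The *Dullard*+/- embryo carries a mutant allele too, and a wild-type embryo was not analysed here. The study designates embryos of either of its targeted alleles as *Dullard*-/-, and the sources used here do not say which allele this embryo had. Both alleles were made in stem cells of another or a mixed strain, and the chimeras were then crossed with C57BL/6 mice. Since each genotype has 1 embryo, no replicate check or test was possible, and each difference describes this pair of embryos.

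Signals are the background-subtracted intensities of the scanner files. For a fold change (*Dullard*-/- over *Dullard*+/-), each log2 signal was set relative to the 75th percentile of its own array, 264 for the *Dullard*-/- and 286 for the *Dullard*+/- embryo. Signals are printed before this scaling, so a gene with equal signals in both embryos has a log2 fold change of 0.11. The log2 fold change of a gene is averaged over those of its probes well above background in both embryos. The error printed after ± comes from replicate spots of probes of like brightness, and it leaves out the spread between embryos. The log2 fold changes of separate probes of a gene had a pooled SD of 0.29 over 3747 genes. Precision is limited by the number of arrays.

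The *Dullard* (*Ctdnep1*) probe gave 144 in the *Dullard*-/- embryo, against 672 in the *Dullard*+/- embryo, which gives -2.11 ± 0.06 on the log2 scale. The signal of the *Dullard*-/- embryo was thus well above background. In embryos of this genotype and stage, the study itself found no *Dullard* mRNA with Q-PCR or in situ hybridization. The null allele of the study lacks every exon, whereas its LacZ allele replaces only a portion of the gene, and the position of the probe relative to that portion is not known here. Markers of the visceral endoderm, a lipid-handling tissue, were well above background on both arrays for 14 of 14 genes, and their summed signal was 242 times the 75th percentile in the *Dullard*-/- embryo and 250 times in the *Dullard*+/- embryo. The summed signal of 11 markers of extraembryonic ectoderm and trophoblast was 17.5 times it in the *Dullard*-/- embryo, against 15.1 times in the *Dullard*+/- embryo, with *Tpbpa* not well above background in either. Of the 10 measured genes of this list, *Eomes* included, 6 were below 0, with a median of -0.04. *Eomes* is also among the epiblast and streak markers. Without it, the sums were 12.2 times the 75th percentile in the *Dullard*-/- embryo, against 11.9 times in the *Dullard*+/- embryo. For 9 markers of epiblast and streak the summed signal was 37.3 times in the *Dullard*-/- embryo and 27.8 times in the *Dullard*+/- embryo, of which *Otx2* gave 14.1 times in the *Dullard*-/- embryo, against 7.96 times in the *Dullard*+/- embryo. Of these 9 genes, 6 were above 0 and 3 below, with 4 past 1.5-fold upward and 1 past it downward. The streak genes did not move together. *T* gave 61.8 in the *Dullard*-/- embryo, against 152 in the *Dullard*+/- embryo (log2 fold change -1.19), whereas *Fgf8* was at 0.94 and *Eomes* at 0.76. Of 9 markers of embryonic and maternal blood, 5 were well above background in the *Dullard*-/- embryo, against 8 in the *Dullard*+/- embryo. Their sums were 1.36 times the 75th percentile in the *Dullard*-/- embryo, against 3.22 times in the *Dullard*+/- embryo. Of the 5 blood markers measured in both embryos, 4 were past 1.5-fold downward and 1 was above 0. These counts and sums do not separate embryonic from maternal blood. *Hba-x* was not well above background in either. Of 10 decidua markers, 6 were well above background in the *Dullard*-/- embryo (a sum of 3.005 times it), against 5 in the *Dullard*+/- embryo (3.042 times). Most of each sum was *Bmp2*, which other tissues express too, and without it the sums were 0.326 times in the *Dullard*-/- embryo, against 0.2498 times in the *Dullard*+/- embryo. The decidua markers did not move together. *Hoxa11* was well above background in the *Dullard*-/- embryo alone, at least 3.64-fold higher. The probes of *Prl3c1* were each well above background in a different embryo. Of the 4 genes measured in both embryos, 2 were above 0 and 2 below. The lowest was *Pgr* at -0.55, whose other probe was well above background in the *Dullard*-/- embryo alone. *Dcn*, *Hoxa10*, *Lum* and *Prl8a2* were not well above background in either embryo. The part of these tissues in the values below was not tested, and fewer cells of a type and less RNA per cell cannot be told apart in whole embryos.

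The lipid synthesis genes stayed close to equal in the 2 embryos. In the *Dullard*-/- embryo *Fasn* was the only measured member past 1.5-fold upward and *Gpam* the only one past it downward, and 0 members reached 2-fold in either direction. That is 3.92% of the members past 1.5-fold, where 7.29% of all genes were past it. By direction, 3.92% of all genes passed 1.5-fold upward and 3.36% passed it downward. At 2-fold the shares of all genes were 1.66% in all, 0.895% higher and 0.766% lower. The share of members past 1.5-fold was thus not above that of the array as a whole.

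The sizes of the differences were small for most members. Of the 51 measured, 31 lay within 0.2 of 0 on the log2 scale and 46 within 0.4. For 8 members the difference was no larger than its error from replicate spots. Log2 fold changes had an SD of 0.24 over members and 0.33 over all genes.

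Large differences were more frequent among dim genes. In the lowest signal quartile of all genes 17.6% were past 1.5-fold, in the second 8.13%, in the third 2.52% and in the highest 0.867%. The members were weighted to bright probes, with 5, 15, 11 and 20 of them in these quartiles. In the same order, the SD of the log2 fold changes was 0.37, 0.30, 0.23 and 0.14 over members. Over all genes of these quartiles it was 0.47, 0.36, 0.25 and 0.17, so the SDs were closer among genes of like signal. *Fasn* lay in the lowest quartile and *Gpam* in the second.

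**Figure D1:**
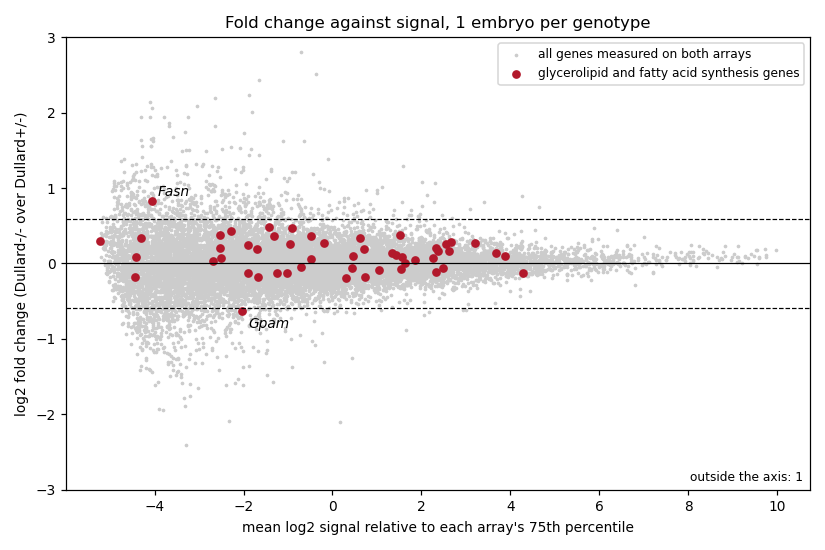
The vertical axis gives the log2 fold change (*Dullard*-/- over *Dullard*+/-) and the horizontal axis the mean log2 signal relative to the 75th percentile, with 1 point per gene, 1 embryo per genotype. Red points are the 51 measured lipid synthesis genes, dashed lines mark 1.5-fold, and *Fasn* at 0.83 and *Gpam* at -0.63 are the red points beyond them.

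As a group the members lay slightly above the array. Of the 51, 36 had a log2 fold change above 0 and 15 below 0, and their median was 0.11, while 51.99% of all genes were above 0, with a median of 0.01. In the highest signal quartile 15 of 20 members were above 0, where 58.3% of all genes in that quartile were. Without scaling between the arrays 25 members were above 0 and 26 below, with a median of -0.0024, while 30.9% of all genes were above 0, with a median of -0.10. The median of the members was thus above that of all genes by 0.10, and its sign depends on the scaling. This scaling shifts all genes alike, so it cannot change the gap of 0.10. Choices that can change the gap include the use of the brighter probes alone (those at or above the median signal), which gave 0.07. The median of the probes of each gene gave 0.10.

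The promoters of a few members are given here, since the array measures transcripts and the sterol regulatory element binding protein encoded by *Srebf1* is known to act at promoters of this pathway. RefSeq promoter windows of GRCm38.p6, from 250 bases before to 50 after each start, were matched by symbol for 42 of the 52 members, in 65 windows. No entry was matched for *Scd1*, *Scd2*, *Gpat4*, *Agpat5*, *Mogat2*, *Dgat1*, *Dgat2*, *Cdipt*, *Pcyt2* and *Ptdss1*. *Fasn* and *Gpam* are shown as the members past 1.5-fold. *Pcyt1a* and *Acsl1* are shown as the members with an exact match to the sterol regulatory element TCACNCCAC on either strand of a window. Each window is written 5′ to 3′ on the strand of the gene, with matches to TCACNCCAC or CCAAT on either strand in capitals. The *Fasn* window is chr11:120824498-120824797 (minus strand), the *Gpam* window chr19:55127189-55127488 (minus strand), the *Pcyt1a* window chr16:32430671-32430970 (plus strand) and the *Acsl1* window chr8:46490716-46491015 (plus strand).
*Fasn*: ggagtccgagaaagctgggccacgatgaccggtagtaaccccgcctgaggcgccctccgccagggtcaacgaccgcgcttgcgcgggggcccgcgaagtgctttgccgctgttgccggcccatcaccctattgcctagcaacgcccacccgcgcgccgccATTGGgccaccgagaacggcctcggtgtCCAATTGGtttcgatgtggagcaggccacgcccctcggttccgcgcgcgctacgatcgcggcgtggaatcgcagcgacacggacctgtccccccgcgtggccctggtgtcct
*Gpam*: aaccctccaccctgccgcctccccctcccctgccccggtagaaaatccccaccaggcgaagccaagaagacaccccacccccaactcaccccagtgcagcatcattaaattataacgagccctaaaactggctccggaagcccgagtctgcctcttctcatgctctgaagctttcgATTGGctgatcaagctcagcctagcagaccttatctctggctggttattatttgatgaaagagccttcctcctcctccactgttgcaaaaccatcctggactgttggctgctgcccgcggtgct
*Pcyt1a*: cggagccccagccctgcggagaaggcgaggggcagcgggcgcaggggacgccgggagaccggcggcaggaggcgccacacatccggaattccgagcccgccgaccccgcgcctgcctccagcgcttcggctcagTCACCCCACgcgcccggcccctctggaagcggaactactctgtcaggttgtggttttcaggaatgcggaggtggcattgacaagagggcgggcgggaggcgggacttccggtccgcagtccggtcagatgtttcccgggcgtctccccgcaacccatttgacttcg
*Acsl1*: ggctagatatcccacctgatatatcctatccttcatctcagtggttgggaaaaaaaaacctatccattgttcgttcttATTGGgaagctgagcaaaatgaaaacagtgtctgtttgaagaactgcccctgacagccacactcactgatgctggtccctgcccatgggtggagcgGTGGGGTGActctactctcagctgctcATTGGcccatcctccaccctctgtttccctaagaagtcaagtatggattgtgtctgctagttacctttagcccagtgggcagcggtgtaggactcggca

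TCACNCCAC was found in 3 of the 65 windows of the members (4.62%) and in 1.24% of all 32851 windows. These were 1 window of *Acsl1* and 2 overlapping windows of *Pcyt1a*, which share the same match. CCAAT was found in 29 of the 65 windows (44.6%) and in 37.4% of all windows. The *Fasn* window above holds 3 CCAAT matches, of which 2 overlap on opposite strands, and the *Gpam* window holds 1. A further *Gpam* window, not shown, holds no match of either motif. These matches are descriptions of the exact letters in the windows. Sites that differ in a letter or lie outside the windows were not counted, so a window without a match may still hold a site. Counted by gene, 25 of the 42 members had CCAAT in a window (59.5%), against 41.1% of all genes. A gene with more windows is more likely to hold a match. The members had 65 windows for 42 genes, against 32851 windows for 27025 genes in all, so the shares by gene are not like for like. The median log2 fold change was 0.08 for these 25 members and 0.10 for the 16 measured members without CCAAT in a window.

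The first steps make palmitate, and 3 of the 4 genes were above 0, with a median of 0.20 (0.12 with the median of the probes of each gene). *Fasn* (NM_007988), the synthase that assembles palmitate from malonyl-CoA, gave 21.0 in the *Dullard*-/- embryo, against 12.8 in the *Dullard*+/- embryo. This is 1.78-fold higher (log2 fold change 0.83 ± 0.25), on 1 dim probe, where the lowest signals well above background were 7.27 in the *Dullard*-/- embryo, against 6.20 in the *Dullard*+/- embryo. With normexp background correction, which adds an offset and so pulls dim probes toward 0, *Fasn* was at 0.27. *Acaca*, the acetyl-CoA carboxylase that commits carbon to fatty acid synthesis, had 3 probes, all higher in the *Dullard*-/- embryo. They gave 695, 261 and 55.2 in the *Dullard*-/- embryo, against 655, 172 and 53.6 in the *Dullard*+/- embryo, with log2 fold changes of 0.20, 0.72 and 0.16 and a mean of 0.36 ± 0.05. The middle probe alone was past 1.5-fold.

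The remaining genes of this group differed less. *Acacb*, the carboxylase at the mitochondrial surface whose product restrains fatty acid oxidation, gave 73.0 and 23.3 in the *Dullard*-/- embryo, against 75.8 and 24.95 in the *Dullard*+/- embryo (0.04 ± 0.12), within its error. *Acly*, which splits citrate to give cytosolic acetyl-CoA, was the lowest of the group at -0.18 ± 0.04. Its probes gave 775 and 219 in the *Dullard*-/- embryo, against 812 and 313 in the *Dullard*+/- embryo, with log2 fold changes of 0.05 and -0.40. The brighter probe was thus near 0 and the dimmer one lower.

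Desaturases and elongases were among the steadiest members. All of them lay in the third or highest signal quartile, where fewer of all genes were past 1.5-fold. *Scd2*, a stearoyl-CoA desaturase that makes monounsaturated acyl chains, gave 3552 in the *Dullard*-/- embryo, against 3500 in the *Dullard*+/- embryo (0.13 ± 0.04). *Scd1*, its paralogue, gave 754 in the *Dullard*-/- embryo, against 861 in the *Dullard*+/- embryo, and was the lowest of the group (-0.08 ± 0.05). The paralogues thus lay on either side of 0, and neither came near 1.5-fold. *Elovl5*, which lengthens polyunsaturated chains, was the highest, at 1432 in the *Dullard*-/- embryo, against 1340 in the *Dullard*+/- embryo (0.21 ± 0.05). *Elovl6*, which lengthens palmitate to stearate, gave 807 in the *Dullard*-/- embryo, against 821 in the *Dullard*+/- embryo (0.09 ± 0.05). *Elovl1*, an elongase of very long saturated chains, gave 515 and 237 in the *Dullard*-/- embryo, against 559 and 276 in the *Dullard*+/- embryo (-0.05 ± 0.04). All 5 genes of this group lay within 1.16-fold, with a median of 0.09.

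The acyl-CoA synthetases activate free fatty acids, and 4 of 5 were above 0, with a median of 0.07 (-0.05 without scaling). *Acsl1* had a pair of probes that gave like values, 648 and 326 in the *Dullard*-/- embryo, against 597 and 316 in the *Dullard*+/- embryo, with log2 fold changes of 0.23 and 0.16. *Acsl3*, a synthetase of the endoplasmic reticulum and lipid droplets, gave 1288 in the *Dullard*-/- embryo, against 1330 in the *Dullard*+/- embryo (0.07 ± 0.05). *Acsl4*, which prefers arachidonate, gave 1270 in the *Dullard*-/- embryo, against 1482 in the *Dullard*+/- embryo, and was the lowest of the group at -0.11 ± 0.05. *Acsl5* was at 0.05 ± 0.07, from 193 in the *Dullard*-/- embryo, against 201 in the *Dullard*+/- embryo. *Acsl6* was the highest at 0.34 ± 0.25, on a probe of 15.1 in the *Dullard*-/- embryo, against 12.9 in the *Dullard*+/- embryo. Its other probe, at 9.78 in the *Dullard*-/- embryo, against 15.8 in the *Dullard*+/- embryo, was well above background for the *Dullard*+/- embryo alone, so the probes of *Acsl6* pointed in opposite directions.

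The glycerol phosphate acyltransferases make lysophosphatidic acid, and they did not move together. *Gpam* (NM_008149), the mitochondrial enzyme, gave 51.9 in the *Dullard*-/- embryo, against 86.6 in the *Dullard*+/- embryo. This is 1.55-fold lower (log2 fold change -0.63 ± 0.11) on 1 probe, and it was the lowest value among the members. With normexp background correction it was at -0.32. *Gpat3* and *Gpat4*, the enzymes of the endoplasmic reticulum, lay above 0. *Gpat3* gave 120 in the *Dullard*-/- embryo, against 101 in the *Dullard*+/- embryo (0.36 ± 0.09), and *Gpat4* gave 1728 in the *Dullard*-/- embryo, against 1660 in the *Dullard*+/- embryo (0.17 ± 0.05).

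The Agpat genes encode the enzymes that add the other acyl chain to give phosphatidic acid. *Agpat5* was the highest of them, at 459 in the *Dullard*-/- embryo, against 393 in the *Dullard*+/- embryo (0.33 ± 0.06). *Agpat3* gave 1447 in the *Dullard*-/- embryo, against 1398 in the *Dullard*+/- embryo (0.16 ± 0.05) and *Agpat1* gave 4017 in the *Dullard*-/- embryo, against 4072 in the *Dullard*+/- embryo (0.09 ± 0.04). *Agpat4* and *Agpat2* lay below 0. *Agpat4* gave 4971 in the *Dullard*-/- embryo, against 5842 in the *Dullard*+/- embryo (-0.12 ± 0.04), and *Agpat2*, which is mutated in human lipodystrophy, gave 77.9 in the *Dullard*-/- embryo, against 95.6 in the *Dullard*+/- embryo (-0.18 ± 0.09). The 8 acyltransferases had a median of 0.13, with 5 above 0 and 3 below.

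**Figure D2:**
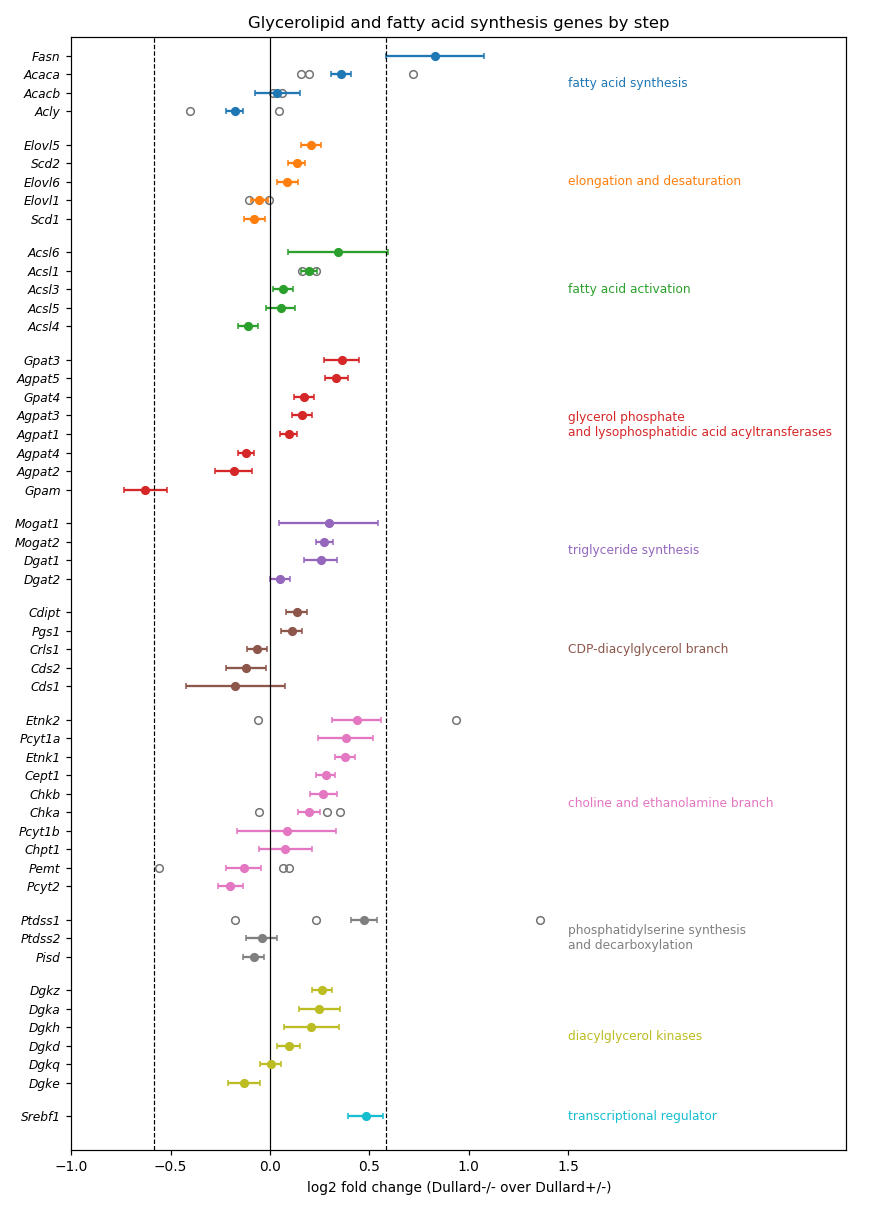
The horizontal axis gives the log2 fold change (*Dullard*-/- over *Dullard*+/-) of the 51 measured lipid synthesis genes, grouped by step and coloured by group, 1 embryo per genotype. Filled points are genes with the error from replicate spots, open circles are single probes where a gene has several, and dashed lines mark 1.5-fold, beyond which *Fasn* and *Gpam* lie.

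All 4 triglyceride genes were above 0, with a median of 0.26. *Mogat2*, which acylates monoacylglycerol, gave 2679 in the *Dullard*-/- embryo, against 2396 in the *Dullard*+/- embryo (0.27 ± 0.04). *Dgat1*, which makes triglyceride from diacylglycerol, gave 148 in the *Dullard*-/- embryo, against 134 in the *Dullard*+/- embryo (0.26 ± 0.08). *Dgat2*, the unrelated enzyme of the same reaction, was the lowest at 968 in the *Dullard*-/- embryo, against 1012 in the *Dullard*+/- embryo (0.05 ± 0.05), within its error. *Mogat1* was the highest at 0.29 ± 0.25, but its probe gave 7.82 in the *Dullard*-/- embryo, against 6.90 in the *Dullard*+/- embryo, close to the lowest signals well above background. Without scaling *Dgat2* was at -0.06 and the other 3 genes kept their sign. The median of the group was 0.14 with normexp.

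In the branch that leads from phosphatidic acid to phosphatidylinositol and cardiolipin, the median was -0.07, with 2 of 5 genes above 0. *Cds1* and *Cds2*, the CDP-diacylglycerol synthases, were below 0. *Cds1* gave 11.5 in the *Dullard*-/- embryo, against 14.1 in the *Dullard*+/- embryo (-0.17 ± 0.25), within its error, and *Cds2* gave 68.3 in the *Dullard*-/- embryo, against 80.3 in the *Dullard*+/- embryo (-0.12 ± 0.10). *Crls1*, the cardiolipin synthase, was also below 0, at 1454 in the *Dullard*-/- embryo, against 1647 in the *Dullard*+/- embryo (-0.07 ± 0.05). *Cdipt*, the phosphatidylinositol synthase, gave 703 in the *Dullard*-/- embryo, against 693 in the *Dullard*+/- embryo (0.13 ± 0.05), and *Pgs1*, which makes phosphatidylglycerol phosphate, gave 743 in the *Dullard*-/- embryo, against 744 in the *Dullard*+/- embryo (0.11 ± 0.05). Scaled to the median of each array, the median of this branch was -0.03, and without scaling it was -0.18. Over the brighter probes alone (those at or above the median signal) it was 0.11, on the other side of 0. That choice leaves out *Cds1* and *Cds2*, while the values of *Pgs1*, *Crls1* and *Cdipt* are unchanged.

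The choline and ethanolamine branch makes phosphatidylcholine and phosphatidylethanolamine from diacylglycerol. Of its 10 genes, 8 were above 0, with a median of 0.23. Taking only the brightest probe per gene, the median was 0.08, and *Chka* and *Etnk2* were then each at -0.06. The kinases were all above 0 as the mean of their probes. *Etnk1*, an ethanolamine kinase, gave 861 in the *Dullard*-/- embryo, against 717 in the *Dullard*+/- embryo (0.38 ± 0.05). *Chkb*, a choline kinase, gave 256 in the *Dullard*-/- embryo, against 229 in the *Dullard*+/- embryo (0.27 ± 0.07). The 3 probes of *Chka*, the other choline kinase, gave 95.4, 86.2 and 80.3 in the *Dullard*-/- embryo, against 80.8, 96.8 and 71.1 in the *Dullard*+/- embryo, with a mean of 0.19 ± 0.05 and 1 of the 3 below 0.

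The enzymes that follow were less uniform. *Pcyt1a*, which controls the rate of phosphatidylcholine synthesis, gave 52.4 in the *Dullard*-/- embryo, against 43.6 in the *Dullard*+/- embryo (0.38 ± 0.14), and its promoter is the one printed with TCACNCCAC on the strand of the gene. *Pcyt1b*, its paralogue, gave 12.6 in the *Dullard*-/- embryo, against 12.9 in the *Dullard*+/- embryo (0.08 ± 0.25), within its error. *Pcyt2*, the ethanolamine counterpart, was the lowest of the branch at 306 in the *Dullard*-/- embryo, against 380 in the *Dullard*+/- embryo (-0.20 ± 0.06). The choline and ethanolamine enzymes *Pcyt1a* and *Pcyt2* were thus on opposite sides of 0. *Cept1*, which completes both lipids, gave 1856 in the *Dullard*-/- embryo, against 1654 in the *Dullard*+/- embryo (0.28 ± 0.05). *Chpt1*, which completes phosphatidylcholine, gave 47.5 in the *Dullard*-/- embryo, against 48.7 in the *Dullard*+/- embryo (0.08 ± 0.13), and its other probe was not well above background in either embryo.

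Among the members with several probes well above background on both arrays, 3 of 9 had probes on opposite sides of 0 that differed by more than 1.5-fold from each other. *Ptdss1*, which makes phosphatidylserine from phosphatidylcholine, was one. Its probes gave 1122, 70.4 and 58.4 in the *Dullard*-/- embryo, against 1033, 85.9 and 24.6 in the *Dullard*+/- embryo, with log2 fold changes of 0.23, -0.17 and 1.36. The mean of 0.47 ± 0.06 therefore rests on the dimmest probe, and the brightest probe was 1.17-fold higher. With the mean of the linear folds in place of the log2 values, *Ptdss1* was at 0.62, past 1.5-fold, and with the median of its probes it was at 0.23.

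*Etnk2*, the other ethanolamine kinase, gave 155 and 25.6 in the *Dullard*-/- embryo, against 175 and 14.5 in the *Dullard*+/- embryo. The brighter probe was at -0.06 and the dimmer at 0.93, so its mean of 0.44 ± 0.12 also rests on the dimmer probe. *Pemt*, which methylates phosphatidylethanolamine to phosphatidylcholine, gave 959, 86.8 and 14.3 in the *Dullard*-/- embryo, against 991, 87.8 and 22.8 in the *Dullard*+/- embryo. Its brighter probes were at 0.06 and 0.10 and the dimmest at -0.56, for a mean of -0.13 ± 0.09. Over the 9 members with several probes the pooled SD between probes was 0.43, above the errors from replicate spots, which ran from 0.04 to 0.25.

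**Figure D3:**
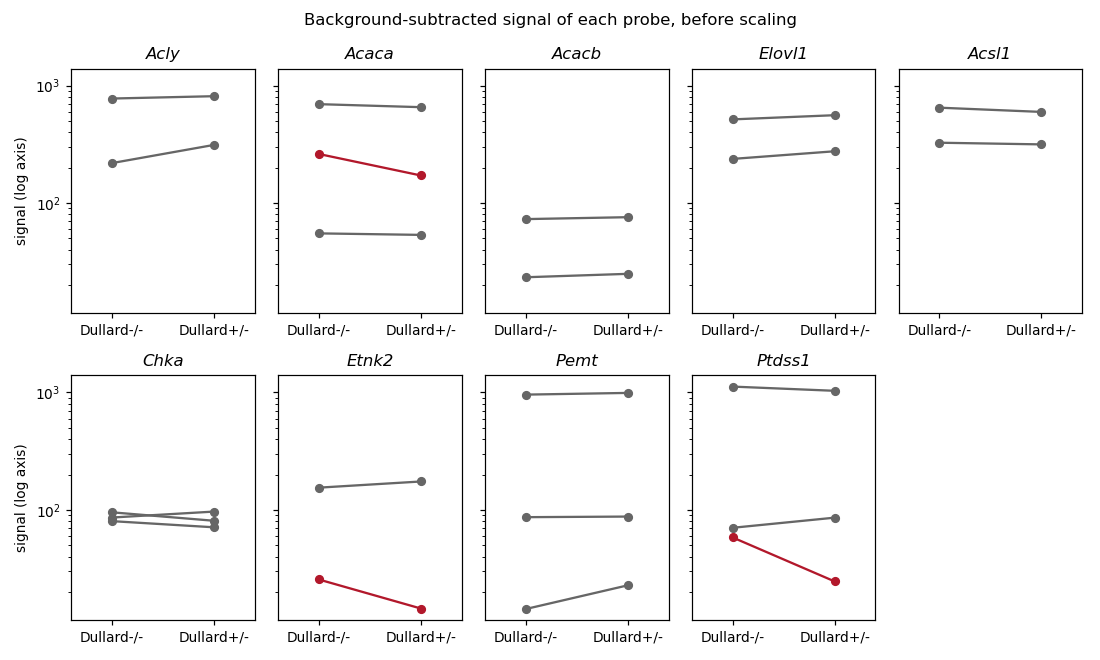
Background-subtracted signal (log axis, before scaling) of each probe in the *Dullard*-/- embryo (left) and the *Dullard*+/- embryo (right), for the 9 members with several probes well above background in both. Lines join the values of a probe, and red lines are probes at least 1.5-fold apart after scaling, 1 each for *Acaca*, *Etnk2* and *Ptdss1*.

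The other phosphatidylserine genes were near 0. *Ptdss2*, which makes phosphatidylserine from phosphatidylethanolamine, gave 159 in the *Dullard*-/- embryo, against 177 in the *Dullard*+/- embryo (-0.04 ± 0.08), within its error. *Pisd*, the mitochondrial decarboxylase that turns phosphatidylserine into phosphatidylethanolamine, gave 527 in the *Dullard*-/- embryo, against 603 in the *Dullard*+/- embryo (-0.08 ± 0.05). The group of 3 had a median of -0.04, and of 0.03 with normexp.

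The diacylglycerol kinases run opposite to the lipins, since they phosphorylate diacylglycerol back to phosphatidic acid. Of 6 measured, 5 were above 0, with a median of 0.15 (0.05 with normexp). *Dgkz* was the highest, at 1711 in the *Dullard*-/- embryo, against 1543 in the *Dullard*+/- embryo (0.26 ± 0.05), followed by *Dgka* at 76.9 in the *Dullard*-/- embryo, against 70.0 in the *Dullard*+/- embryo (0.25 ± 0.10) and *Dgkh* at 48.8 in the *Dullard*-/- embryo, against 45.7 in the *Dullard*+/- embryo (0.21 ± 0.14). *Dgkd* was at 374 in the *Dullard*-/- embryo, against 379 in the *Dullard*+/- embryo (0.09 ± 0.06), and *Dgkq* at 823 in the *Dullard*-/- embryo, against 888 in the *Dullard*+/- embryo (0.00 ± 0.05). *Dgke* was the lowest, at 124 in the *Dullard*-/- embryo, against 147 in the *Dullard*+/- embryo (-0.13 ± 0.08). The *Dgkg* probe gave 6.20 in the *Dullard*-/- embryo, against 6.59 in the *Dullard*+/- embryo, not well above background in either.

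*Srebf1* (NM_011480) encodes the transcription factor that drives fatty acid synthesis genes. Its probe gave 117 in the *Dullard*-/- embryo, against 90.3 in the *Dullard*+/- embryo, so it was 1.396-fold higher (log2 fold change 0.48 ± 0.09). Among the members this was the largest value after *Fasn*, and 94.2% of all genes were lower. *Srebf1* stayed above 0 under each of the 11 alternatives that gave it a value, between 0.35 and 0.52. Over 13 genes of SREBP processing and lipid sensing the median was 0.004, with 7 above 0 and 0 past 1.5-fold. *Mlx* at -0.51 was the lowest of that list and *Insig2* at 0.22 the highest.

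Other lipid genes were taken from lists of related steps. Of 33 measured genes of other glycerolipid and fatty acid synthesis steps, 15 were above 0, with a median of -0.02, and 1 was past 1.5-fold. That gene was *Gpd1*, which makes glycerol phosphate, at 39.9 in the *Dullard*-/- embryo, against 25.02 in the *Dullard*+/- embryo (0.78 ± 0.18). The lowest was *Fads1*, a desaturase of polyunsaturated chains, at 131 in the *Dullard*-/- embryo, against 212 in the *Dullard*+/- embryo (-0.58 ± 0.08), followed by *Gpd2* at -0.51 and *Gpd1l* at -0.50. Among 8 genes of lipins, lipid phosphate phosphatases and *Dullard* with its partner, 1 of 7 measured was above 0, with a median of -0.16. Without *Dullard* itself, 5 of 6 were below 0, with a median of -0.12. *Lpin2* was at 0.43 ± 0.19, *Plpp1*, a lipid phosphate phosphatase, at -0.38 ± 0.09, *Lpin3* at -0.29 ± 0.12 and *Cnep1r1* at -0.16 ± 0.04. Neither *Lpin1* probe was well above background in either embryo.

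The lists of lipid use gave like medians. Of 14 measured fatty acid oxidation genes, 12 were above 0, with a median of 0.08 and 0 past 1.5-fold, and *Decr1* was the highest at 0.47. Of 11 measured genes of fatty acid uptake and binding, 6 were above 0, with a median of 0.00, and *Lpl*, the lipoprotein lipase, was past 1.5-fold at 0.69 ± 0.14. *Lpl* gave 60.4 and 14.8 in the *Dullard*-/- embryo, against 44.5 and 9.01 in the *Dullard*+/- embryo on its probes, both higher in the *Dullard*-/- embryo. Of 15 measured genes of lipid droplets and lipases, 6 were above 0, with a median of -0.01 and 0 past 1.5-fold. Without scaling, each log2 fold change of this paragraph and those before it is lower by 0.11 under the same probes.

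**Figure D4:**
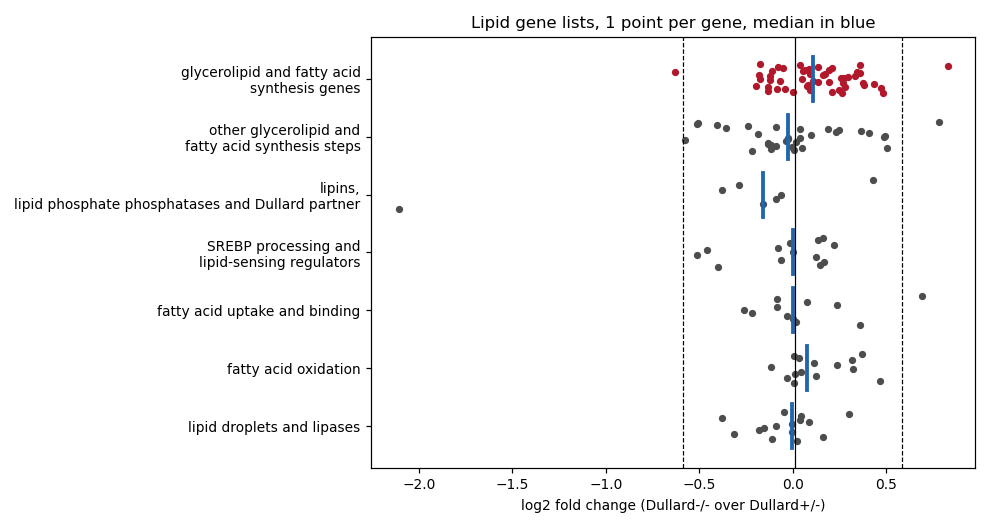
Each point is a measured gene of 7 lipid lists at its log2 fold change (*Dullard*-/- over *Dullard*+/-) on the horizontal axis, 1 embryo per genotype, with each list's median as a blue bar. Dashed lines mark 1.5-fold and the solid line is the median of all genes at 0.01. The members have the highest of these 7 medians, at 0.11, whereas the list of other synthesis steps is at -0.02. Fatty acid oxidation genes have a larger share above 0 (85.7%) than the members (70.6%). The point at -2.11 is *Dullard*.

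**Figure D5:**
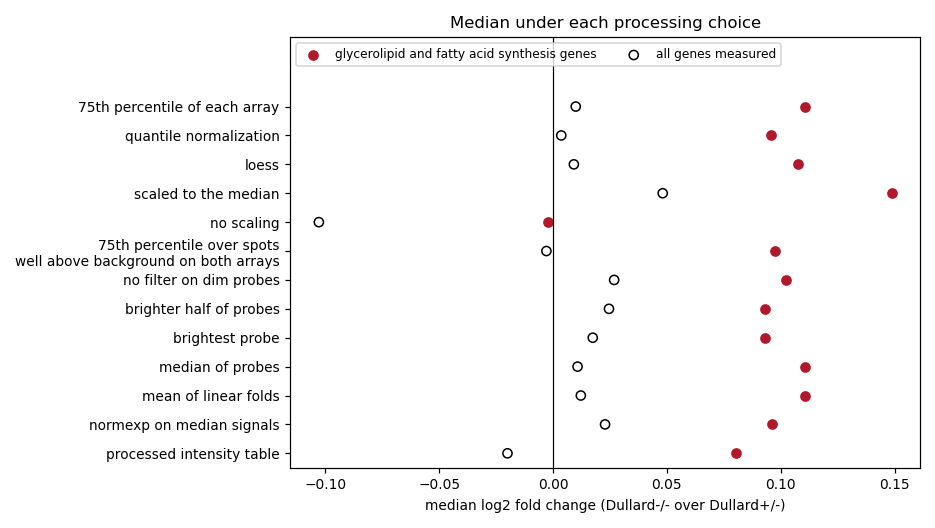
The horizontal axis is the median log2 fold change (*Dullard*-/- over *Dullard*+/-) of the lipid synthesis genes (red) and of all genes measured (open circles) under each processing choice (rows), 1 embryo per genotype. The red point lies to the right of the open circle in each row, with gaps from 0.07 to 0.10.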

How the data were processed

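Total RNA of 1 *Dullard*-/- and 1 *Dullard*+/- embryo was amplified, labelled with Cy3 and hybridised to a 1-colour Agilent whole mouse genome array. The labels and the study's methods name different amplification kits and RNA inputs. The deposited intensity values were made by the authors with Agilent Feature Extraction 10.10, which subtracts local background per the file headers. The authors' table of processed intensity holds the same signals multiplied by 5.20 for the *Dullard*-/- array and 4.91 for the *Dullard*+/- array, with medians of 181 and 189; the sources used here do not give how these factors were set.

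Of 43020 spots, control spots aside, 30235 had an accession that a RefSeq table (GRCm38.p6) names. Outlier spots, 206 in all, were left out, and 0 were saturated. Spots well above background numbered 29310 in the *Dullard*-/- embryo, against 31242 in the *Dullard*+/- embryo. A probe counted as well above background only where all its spots were. Log2 signals were set relative to the 75th percentile of each array, spots of a probe were averaged, and probes of a gene well above background on both arrays were averaged. The error of a probe is the spot spread of the 40 replicated probes nearest in signal, out of 281. With 1 array per genotype no test was made, and differences were counted at 1.5-fold and 2-fold. The tools were Python 3.11.15 with numpy 2.4.6 and pandas 2.3.3, and limma 3.58.1 in R 4.3.3 for normexp (offset 50) and loess (span 0.3). Quantile normalization was computed with numpy. The calculation was tested on simulated data.

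The members and lists were chosen with earlier results of these data known, and 1 marker gene is not reported here. All 52 members are named, with values for those past 1.5-fold, those whose probes disagree, the highest and lowest of each step and fixed genes of each step, and at most 4 further genes of each other list by size. Alternatives were other scalings, filters on dim probes, ways of joining probes, normexp and the authors' table. No further columns of per-sample values were present beyond these arrays.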

Additional observations from a re-analysis of the deposited data

How the results depend on the processing

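The median log2 fold change of the members lay between 0.08 and 0.15 under 11 of 12 alternatives and was -0.0024 without scaling between arrays. Without scaling, the log2 fold changes of all genes shift by -0.11, and 33.2% of genes past 1.5-fold were higher (388 higher, 780 lower), where 53.9% were (579 higher, 496 lower) with the 75th percentile. That share was 61.5% with quantile normalization, 62.5% with loess and 61.6% scaled to the median. Without a filter on dim probes 1215 genes were past 1.5-fold upward and 1737 downward. Members at least 1.5-fold higher numbered 2 with the mean of linear folds, where *Ptdss1* joined *Fasn*. They numbered 0 with the brighter probes alone, which leave out *Fasn* and *Gpam*, and 0 with normexp, and members at least 1.5-fold lower likewise numbered 0 under both. With the brighter probes 104 genes were higher and 34 lower past 1.5-fold, and with normexp 94 and 33. Of the 51 members, 33 kept their sign in every alternative that gave them a value and 18 did not, the largest of these being *Etnk2* at 0.44. No paired analysis was possible because each genotype has 1 array and no result comes from a test. Values near the lowest signals well above background (7.27 in the *Dullard*-/- embryo, against 6.20 in the *Dullard*+/- embryo) have the largest errors.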
